A study of Homo sapiens with 6 samples.

Results

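The mitochondrial genome encodes subunits of the respiratory chain, and 10 of these genes are described here: MT-ND1, MT-ND2, MT-ND4, MT-ND5 and MT-ND6 of complex I, MT-CYB of complex III, MT-CO1, MT-CO2 and MT-CO3 of complex IV, and MT-ATP6 of complex V. They were taken by symbol from the expression tables, which hold 37493 Ensembl identifiers, and all 10 were found in both tables. The tables hold 37 rows for mitochondrially encoded genes in all: 13 protein-coding genes, 2 ribosomal RNAs and 22 transfer RNAs. The study measured RNA in the esophageal adenocarcinoma cell lines Eso26, grown in RPMI-1640, and OE33, grown in DMEM. Both media held fetal bovine serum and antibiotics. Each line was transfected by Lipofectamine RNAiMAX. The control received a non-silencing siRNA and the siPPARG group received siRNA to the nuclear receptor gene PPARG. The tables hold 1 column of counts for each of these 4 groups, treated here as 1 library. The series text speaks of triplicates, and whether a column joins several cultures is not known, so differences within a line, and between the 2 controls, have no replicate check.

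Mitochondrial genes are transcribed as long precursors from both strands of a small circular genome, and the precursors are cut into messenger, ribosomal and transfer RNAs. Of the protein-coding genes, MT-ND6 alone is read from the light strand. The proteins are core parts of the chain: complex I takes electrons from NADH, complex III passes them to cytochrome c, complex IV hands them to oxygen, and complex V makes ATP. The other subunits of these complexes, and the whole machinery that transcribes and processes mitochondrial RNA, are encoded in the nucleus.

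Total counts ran from 16866996 to 23019840 per library. All intervals below are 95% intervals of counting error alone. They narrow as counts rise, so shares of all genes with an interval above or below 1 are not matched for count level. PPARG itself stood at 0.136 times the control in OE33 (interval 0.120 to 0.153) and at 0.843 times in Eso26 (interval 0.698 to 1.02), and in Eso26 the words "siPPARG library" below mean only the library with that label. Of 9 epithelial markers, 9 in OE33 and 8 in Eso26 were at 5 CPM (counts in each 1e6) or more; KRT7, a keratin of simple epithelia, stood at 1.30 and 1.36 CPM in Eso26 control and siPPARG and at 1442 and 1362 CPM in OE33. Summed levels of these markers ran from 5404 to 10984 CPM, led by EPCAM in Eso26 and KRT19 in OE33. Summed fibroblast markers stood at 3.79 to 8.52 CPM, endothelial markers at 0.165 to 4.04 CPM and immune markers at 5.69 to 26.3 CPM, the last mostly LYZ in Eso26. CD3E was at 0 in all 4 libraries. These markers' part in the results below was not tested.

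The 10 genes took a far larger share of the RNA counts in Eso26 than in OE33. In the Eso26 control they summed to 466487 counts, 2.03% of all counts (interval 2.02 to 2.03). In the OE33 control they summed to 59660 counts, 0.354% (interval 0.351 to 0.357). The siPPARG libraries stood at 415360 counts, 2.02%, in Eso26 and at 79786 counts, 0.439%, in OE33. The share was thus 5.73-fold larger in Eso26 between the controls (interval 5.68 to 5.78) and 4.60-fold larger between the siPPARG libraries (interval 4.57 to 4.64). In each Eso26 library 9 members were among the 100 rows with the most counts, whereas OE33 had 0 such members with the control siRNA and 1 with siPPARG. A share of counts does not tell less mitochondrial RNA per cell from more nuclear RNA per cell.

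**Figure D1:**
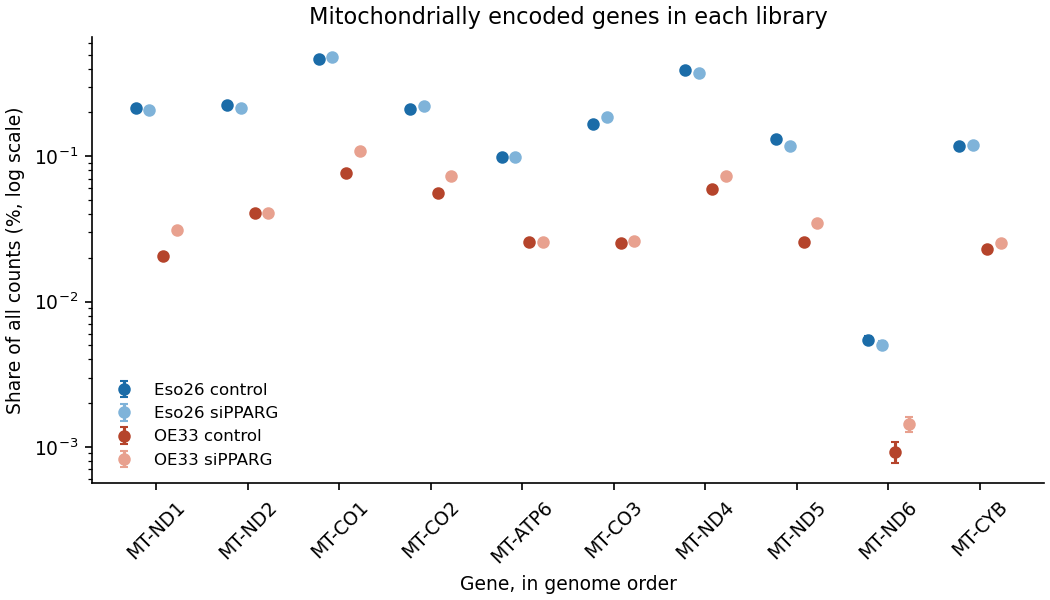
Share of all counts (percent, log axis) of each of the 10 members in the 4 libraries, in genome order, with 95% counting intervals. Both Eso26 libraries lie above both OE33 libraries at every gene, with the sum of the members at 2.03% and 2.02% in Eso26 and at 0.354% and 0.439% in OE33. The share of all genes that keep the lines apart in this way was not counted.

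Complex I held the member with the largest difference. MT-ND1 (ENSG00000198888), a subunit next to the site where ubiquinone is reduced, had 49361 and 42725 counts in Eso26 control and siPPARG and 3494 and 5647 in OE33. These are 0.214%, 0.208%, 0.0207% and 0.0311% of all counts. The controls differed 10.4-fold (interval 10.0 to 10.7) and the siPPARG libraries 6.69-fold. The lines did not overlap, and within OE33 the siPPARG library was the higher. How many of all genes kept the lines apart was not counted. Differences between the lines were common, with 34.1% of genes tested called lower in OE33 and 37.2% higher.

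MT-ND2 (ENSG00000198763), part of the proton-pumping membrane arm, had 51983 and 44124 counts in Eso26 control and siPPARG and 6879 and 7408 in OE33. Its share was 5.54-fold larger in Eso26 between the controls (interval 5.40 to 5.68). MT-ND4 (ENSG00000198886), another membrane arm subunit, had 89589 and 77293 counts in Eso26 control and siPPARG and 9983 and 13170 in OE33, 6.58-fold between the controls (interval 6.44 to 6.71). Both genes showed the lines apart with no overlap, a separation that was not counted over all genes. MT-ND5 (ENSG00000198786), also of that arm, had 30205 and 24187 counts in Eso26 and 4318 and 6260 in OE33, 5.13-fold between the controls (interval 4.96 to 5.29). The light-strand gene MT-ND6 (ENSG00000198695) had 1255 and 1025 counts in Eso26 and 155 and 259 in OE33. Its controls differed 5.93-fold (interval 5.02 to 7.06), the widest interval of the 10 because its counts were lowest. The sources used here do not give the strand setting of the counting, so reads of MT-ND6 and of the transcript opposite to it cannot be told apart.

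Complex III has a single mitochondrially encoded subunit, cytochrome b. MT-CYB (ENSG00000198727) had 27064 and 24570 counts in Eso26 control and siPPARG and 3902 and 4557 in OE33. Its share was 5.08-fold larger in Eso26 between the controls (interval 4.91 to 5.26) and 4.77-fold between the siPPARG libraries.

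The complex IV genes encode the catalytic core of cytochrome c oxidase. MT-CO1 (ENSG00000198804), which carries the oxygen-reducing centre, had 107253 and 98168 counts in Eso26 control and siPPARG and 12871 and 19688 in OE33, 6.11-fold between the controls (interval 5.99 to 6.22). MT-CO2 (ENSG00000198712), which accepts electrons from cytochrome c, had 48906 and 45185 counts in Eso26 and 9430 and 13368 in OE33. Its 3.80-fold difference between the controls (interval 3.72 to 3.89) was the smallest of the 10. MT-CO3 (ENSG00000198938) had 38285 and 37923 counts in Eso26 and 4294 and 4731 in OE33. It was 6.53-fold apart between the controls (interval 6.33 to 6.74) and 7.09-fold between the siPPARG libraries, the one member whose gap was wider in the siPPARG libraries than in the controls.

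MT-ATP6 (ENSG00000198899), which forms part of the proton channel of ATP synthase, had 22586 and 20160 counts in Eso26 control and siPPARG and 4334 and 4698 in OE33. It was 3.82-fold apart between the controls (interval 3.70 to 3.95), which overlaps the interval of MT-CO2. A nuclear copy of this gene, the pseudogene MTATP6P1, had 3120, 2933, 700 and 775 counts in the same order, or 13.8%, 14.5%, 16.2% and 16.5% of the MT-ATP6 counts. How reads shared by the 2 were counted is not known, so the MT-ATP6 level is uncertain to that extent.

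Ordered by the controls' ratio of OE33 to Eso26, the members ran from MT-ND1 at 0.0966 through MT-ND4 (0.152), MT-CO3 (0.153), MT-CO1 (0.164), MT-ND6 (0.169), MT-ND2 (0.181), MT-ND5 (0.195), MT-CYB (0.197) and MT-ATP6 (0.262) to MT-CO2 (0.263). MT-ND1 stood apart from its neighbour beyond counting error. The intervals overlapped within the pairs MT-ND4 and MT-CO3, MT-ND5 and MT-CYB, and MT-ATP6 and MT-CO2, and the interval of MT-ND6 (0.142 to 0.199) took in the values from MT-ND4 to MT-CYB.

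**Figure D2:**
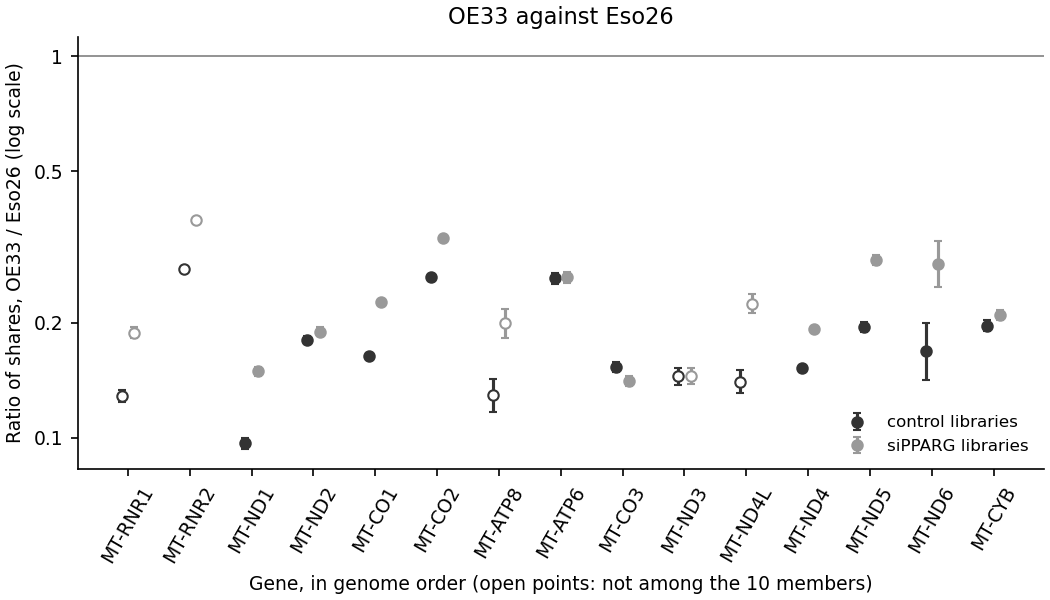
Ratio of the share of all counts in OE33 to that in Eso26 (log axis) for the mitochondrial protein-coding and ribosomal RNA genes in genome order, in the control and the siPPARG libraries, with 95% counting intervals. Every point lies below 1, from 0.0966 for MT-ND1 in the controls to 0.371 for MT-RNR2 in the siPPARG libraries.

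Against all genes, the members stood in the lower tail of the comparison of the controls. The 11200 genes that reached 5 CPM in either library of the pair were kept. All 10 members were lower in OE33 past 2-fold, where 17% of kept genes were, and 8 of 10 past 4-fold, where 6.74% of kept genes were. The median log2 difference of the members was -2.51, and that of all kept genes was -0.0095. Of the kept genes, 5.37% lay below the members' median. Between the siPPARG libraries, all 10 were again lower past 2-fold (19% of 11299 kept genes) and 6 past 4-fold (7.27%).

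**Figure D3:**
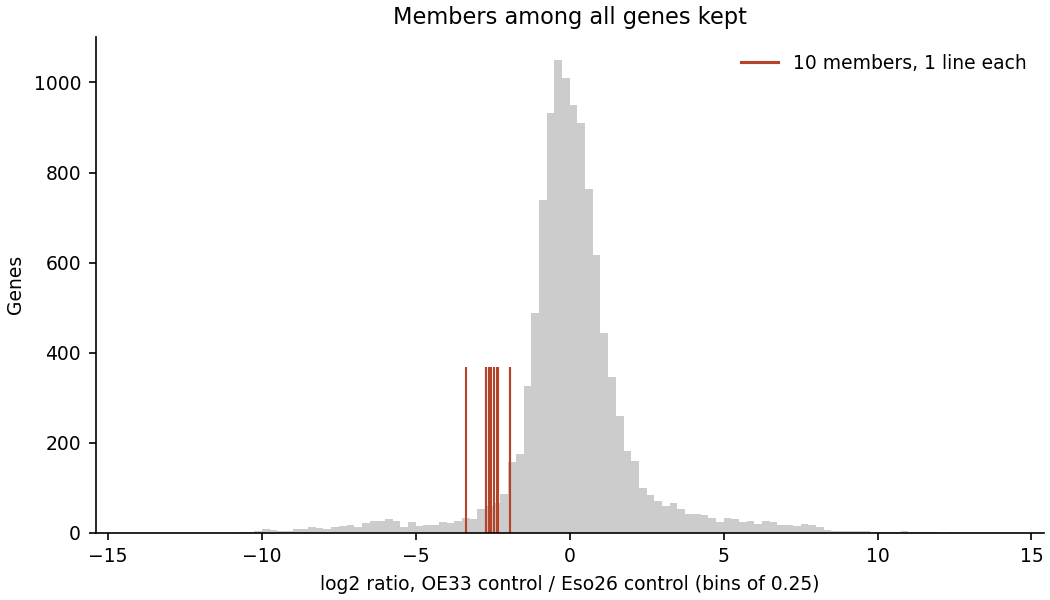
Distribution of the log2 ratio of OE33 control to Eso26 control over the 11200 genes kept, in bins of 0.25, with 1 red line for each of the 10 members. The members lie between -3.37 and -1.93, below the median of all genes at -0.0095.

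The difference between the lines was tested in a fit of the 4 libraries with line and treatment, in which the 2 libraries of a line serve as its replicates. Since these differ in treatment and 1 residual degree of freedom is left, the p-values measure only the spread among these libraries. The edgeR test pools information on that spread across all genes tested, and the p-values changed with filter and tool. For MT-ND1, the adjusted p was 4.70e-16 by edgeR without a filter and 2.59e-40 by the Wald test of DESeq2. By edgeR's quasi-likelihood test with Benjamini-Hochberg adjustment, all 10 members were called lower in OE33, where 34.1% of 11382 genes tested were called lower and 37.2% higher. A call was thus common between these lines. The fitted log2 differences ran from -2.99 for MT-ND1 (edgeR adjusted p = 0.000105) to -1.68 for MT-CO2 (edgeR adjusted p = 0.000223). The lowest adjusted p by edgeR among the members was 2.76e-05 for MT-CO3 (log2 difference -2.70), and the highest was 0.000559 for MT-ND6 (-2.11). Cell line and growth medium cannot be told apart in this design.

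The other mitochondrially encoded genes were lower in OE33 as well. In that fit the protein-coding genes MT-ND3, MT-ND4L and MT-ATP8 and the ribosomal RNA genes MT-RNR1 and MT-RNR2 were all 5 called lower, with log2 differences from -2.72 to -1.57. MT-ND3 had 14784 and 13862 counts in Eso26 control and siPPARG and 1568 and 1777 in OE33. MT-ND4L had 9047 and 6765 against 930 and 1345, and MT-ATP8 had 4620 and 3350 against 437 and 592. The reading frames of MT-ATP8 and MT-ATP6 overlap, as do those of MT-ND4L and MT-ND4, so reads in the overlap may be counted for either gene or for none.

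Both ribosomal RNAs were present in the tables, and their balance differed between the lines. MT-RNR2, the large ribosomal RNA, had 119662 and 99764 counts in Eso26 control and siPPARG and 24341 and 32761 in OE33. MT-RNR1, the small ribosomal RNA, had 30758 and 25601 in Eso26 and 2896 and 4268 in OE33. The MT-RNR2 to MT-RNR1 ratio was 3.89 and 3.90 in the Eso26 libraries and 8.41 (interval 8.09 to 8.74) and 7.68 (interval 7.43 to 7.93) in the OE33 libraries. The 2 ribosomal RNAs together stood at 0.304 and 0.285 counts per protein-coding count in Eso26 and at 0.435 and 0.443 in OE33. The sources used here do not say whether polyadenylated RNA was selected. The nuclear noncoding RNA MALAT1 moved with the line too, at 665 and 694 CPM in Eso26 and 302 and 356 CPM in OE33, whereas NEAT1, another nuclear noncoding RNA (229 and 233 CPM against 189 and 236 CPM), and the summed histone genes (120 and 141 CPM against 78.0 and 122 CPM) overlapped. The part of library type or RNA quality in the line difference was not tested.

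The members did not differ between the lines by 1 common factor. Within the members' own counts, MT-ND1 made up 10.6% and 10.3% in the Eso26 libraries and 5.86% and 7.08% in the OE33 libraries. MT-CO2 went the other way, with 10.5% and 10.9% in Eso26 and 15.8% and 16.8% in OE33. MT-ATP6 held 4.84% and 4.85% in Eso26 and 7.26% and 5.89% in OE33, and MT-CO3 8.21% and 9.13% against 7.20% and 5.93%. For each of these 4 genes the 2 libraries of a line lay on the same side of both libraries of the other line. MT-CO1 did not separate the lines, at 23.0% and 23.6% in Eso26 and 21.6% and 24.7% in OE33, and neither did MT-ND2, at 11.1% and 10.6% against 11.5% and 9.28%, nor MT-CYB, at 5.80% and 5.92% against 6.54% and 5.71%. MT-ND4 held a smaller part in OE33 (16.7% and 16.5%) than in Eso26 (19.2% and 18.6%), and MT-ND5 a larger one (7.24% and 7.85% against 6.47% and 5.82%). MT-ND6 was 0.269% and 0.247% of the members' counts in Eso26 and 0.260% and 0.325% in OE33, which overlap.

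**Figure D4:**
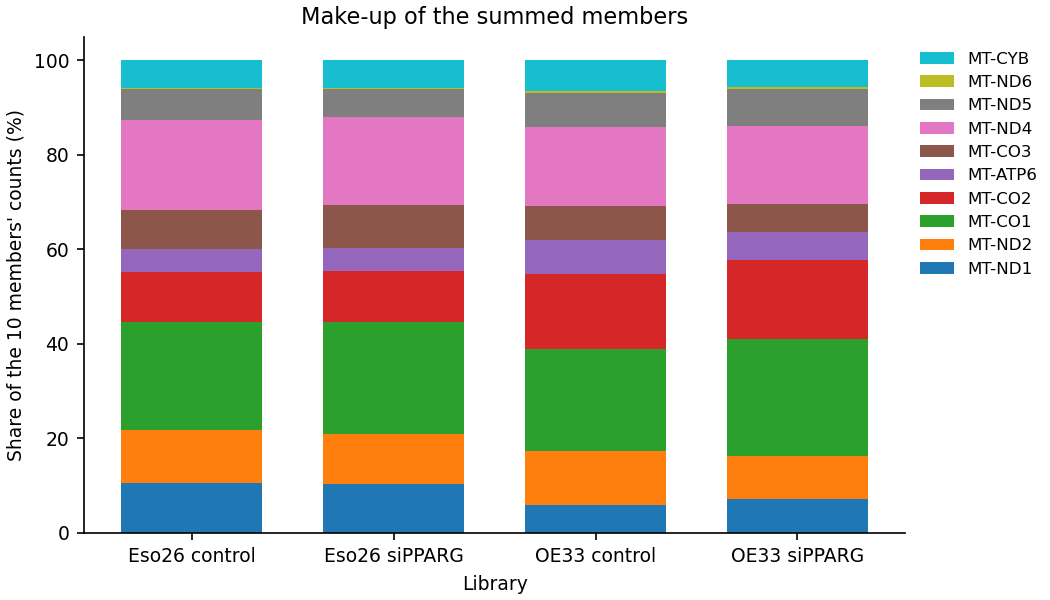
Make-up of the counts of the 10 members in each library, as percent of their sum, stacked in genome order. MT-ND1 shrinks from 10.6% in the Eso26 control to 5.86% in the OE33 control while MT-CO2 grows from 10.5% to 15.8%.

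After siPPARG in OE33, the summed members stood higher than in the control, and unevenly so. Counts were scaled here by TMM factors within the line. The sum was 1.25 times the control (interval 1.24 to 1.26). All 10 members had a ratio above 1 (48.7% of 10527 kept genes did), and 7 had a counting interval above 1, where 24.8% of kept genes did. Most members had more counts, and so narrower intervals, than most genes, so this last share is not matched for count level. The median log2 difference of the members was 0.35, and that of all kept genes was -0.0075; 8.89% of kept genes lay above the members' median. Past 1.5-fold, 2 members were higher, where 3.26% of kept genes were, and 0 were past 2-fold, where 1.04% of kept genes were. In the same pair of libraries the summed histone genes stood at 78.0 CPM in the control and 122 CPM in siPPARG, MALAT1 at 302 and 356 CPM and NEAT1 at 189 and 236 CPM; the part of library type or RNA quality in this difference was not tested.

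The members past 1.5-fold were MT-ND6 at 1.56 (interval 1.28 to 1.92) and MT-ND1 at 1.51 (interval 1.45 to 1.58). MT-CO1 followed at 1.43 (interval 1.40 to 1.46), MT-ND5 at 1.36 (interval 1.30 to 1.41), MT-CO2 at 1.33 (interval 1.29 to 1.36), MT-ND4 at 1.23 (interval 1.20 to 1.27) and MT-CYB at 1.09 (interval 1.05 to 1.14). For the other 3 the interval included 1: MT-CO3 at 1.03 (interval 0.988 to 1.07), MT-ATP6 at 1.01 (interval 0.972 to 1.06) and MT-ND2 at 1.01 (interval 0.974 to 1.04). MT-ND1 and MT-ND2, which follow each other along the genome with only transfer RNA genes between them, thus had ratios whose intervals did not overlap. So did MT-CO2 and MT-ATP6, which are separated by MT-ATP8 and a transfer RNA gene. By complex, the summed complex IV members stood at 1.33 times the control, the complex I members at 1.23, MT-CYB at 1.09 and MT-ATP6 at 1.01. The 2 ribosomal RNAs together stood at 1.27 (interval 1.25 to 1.29).

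In Eso26 the summed members of the library labelled siPPARG were close to the control, at 0.968 times (interval 0.964 to 0.972) with TMM scaling and 0.998 (interval 0.994 to 1.002) as a plain share of all counts. With TMM scaling, 8 members were lower (51.4% of 10443 kept genes were) and 2 higher (48.6%). The interval lay below 1 for 6 (29.6% of kept genes did so) and above 1 for 1 (23.6%), shares again not matched for count level. As plain shares, 5 were lower and 5 higher, with MT-CO1, MT-ATP6 and MT-CYB changing side. None was past 1.5-fold in either direction, where 1.25% of kept genes were higher and 1.15% lower. The members ran from MT-ND5 at 0.870 (interval 0.856 to 0.885) and MT-ND6 at 0.888 (interval 0.817 to 0.965) to MT-CO3 at 1.08 (interval 1.06 to 1.09). MT-ND2 stood at 0.923, MT-ND4 at 0.938 and MT-ND1 at 0.941, so that all 5 complex I members were lower under both scalings. Of the complex I genes outside the members, with TMM scaling, MT-ND4L stood at 0.813 and MT-ND3 at 1.02 (interval 0.996 to 1.04). MT-ATP6 stood at 0.970, MT-CYB at 0.987, MT-CO1 at 0.995 and MT-CO2 at 1.004.

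**Figure D5:**
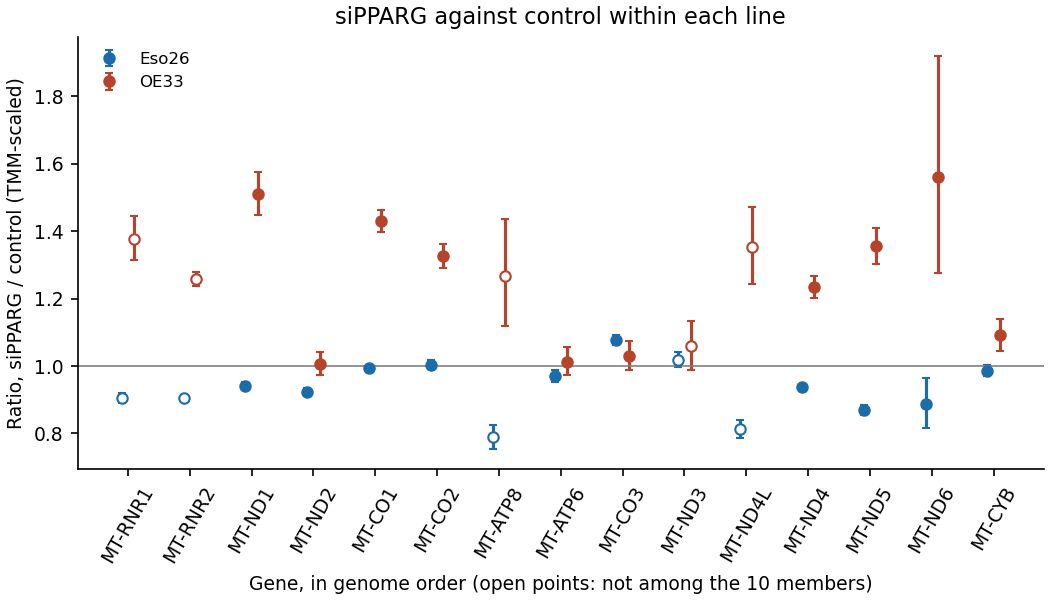
Ratio of siPPARG to control within each line (TMM-scaled, linear axis) for the mitochondrial genes in genome order, with 95% counting intervals. The OE33 members lie between 1.01 and 1.56 and the Eso26 members between 0.870 and 1.08, with MT-CO3 the one member higher in Eso26 than in OE33.

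An effect of siPPARG common to both lines was not detected for any member. In the fit of the 4 libraries, the quasi-likelihood test of edgeR found 0 of 11382 genes (0% in either direction) and 0 of 10 members at an adjusted p under 0.05. At an unadjusted p under 0.05 it had 523 genes and 0 members. PPARG itself was not called in this fit (log2 effect -1.67, edgeR adjusted p = 0.942). Its level was 0.136 times the control in OE33 and 0.843 times in Eso26 (interval 0.698 to 1.02). Since its loss was not shown in Eso26, the fit cannot decide on an effect of PPARG loss common to both lines. DESeq2 called 13 genes and limma-voom 0, and neither called a member. The fitted log2 effects of the members ran from -0.049 for MT-ND2 to 0.26 for MT-CO1 (edgeR adjusted p = 0.942 for MT-CO1, the lowest of the members). With 1 residual degree of freedom, unequal responses of the 2 lines enter the error term, and whether the responses differ cannot be tested here.

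The nuclear genes that transcribe, process and maintain mitochondrial nucleic acids were read from lists chosen with earlier results of these data known. RNA processing and stability genes were mostly lower in OE33: in the 4-library fit 12 of 18 were called lower and 0 higher, against 34.1% and 37.2% of all genes tested, with a median log2 difference of -0.72. LRPPRC, whose protein stabilises mitochondrial messenger RNAs, had 21325 and 16290 counts in Eso26 control and siPPARG and 4976 and 5178 in OE33, 2.82-fold lower in OE33 (edgeR adjusted p = 0.000211). Of 10 genes listed under transcription, 5 were called lower and 1 higher, with a median of -0.49. TFAM, which binds and packages mitochondrial DNA and activates its promoters, had 5571 and 4087 counts in Eso26 and 1852 and 1830 in OE33, 1.99-fold lower in OE33 (edgeR adjusted p = 0.000994). POLRMT, the mitochondrial RNA polymerase, was not called, with 785 and 741 counts in Eso26 and 768 and 721 in OE33 (log2 difference 0.35, edgeR adjusted p = 0.0593). Of 13 DNA maintenance genes 4 were called lower and 2 higher, and of 9 biogenesis regulators 3 and 3.

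With siPPARG, 0 of the kept genes listed under transcription and RNA processing were past 1.5-fold in either line. Few genes were: 1.25% of all kept genes were higher and 1.15% lower in Eso26. For OE33, 3.26% were higher and 251 of 10527 lower. PNPT1, a mitochondrial polynucleotide phosphorylase and an interferon-inducible gene, stood at 1.44 times the control in OE33 (interval 1.36 to 1.52) and at 0.816 in Eso26 (interval 0.780 to 0.854). FASTKD5, an RNA processing factor, stood at 1.23 in OE33 and 1.03 in Eso26, and LRPPRC at 0.973 and 0.830. Among the genes listed under transcription, TFAM stood at 0.924 in OE33 (interval 0.866 to 0.986) and 0.797 in Eso26 (interval 0.766 to 0.830). In the same order, POLRMT stood at 0.878 and 1.03, TFB1M at 0.758 and 1.08, and MTERF4 at 1.27 and 1.03. MRPL12 stood at 1.35 (interval 0.973 to 1.87) and 1.15. The part each of these genes plays in transcription was not examined. In OE33 the counting interval lay above 1 for 4 and below 1 for 4 of the 17 RNA processing genes kept. For the 9 kept genes listed under transcription these were 2 and 3. Of all kept genes in OE33, 24.8% lay above 1 and 25.8% below.

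Of the DNA maintenance genes, RRM2B, a ribonucleotide reductase subunit that supplies nucleotides for mitochondrial DNA, stood at 0.666 in OE33 (interval 0.596 to 0.743) and 1.26 in Eso26 (interval 1.15 to 1.39). TOP1MT, the mitochondrial topoisomerase, stood at 0.670 and 1.03, and TK2, the mitochondrial thymidine kinase, at 0.827 and 1.46. Among the regulators of mitochondrial biogenesis, the coactivator gene PPARGC1B stood at 0.811 in OE33 and 0.605 in Eso26 (interval 0.516 to 0.709), MYC at 0.823 and 0.728, and GABPA at 0.736 and 0.832. In this list 5 of 8 kept genes had a counting interval below 1 in OE33 and 6 of 9 in Eso26, where 25.8% and 29.6% of all kept genes did. None of these genes was called in the fit of an effect common to both lines.

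The nuclear-encoded subunits of complexes I, III, IV and V had a smaller median difference between the lines than the 10 members. Of 67 tested, 37 were called lower in OE33 and 8 higher, where 34.1% and 37.2% of all genes tested were, with a median log2 difference of -0.55 beside -2.27 for the 10 members. In complex IV 7 of 11 were called lower and 0 higher, in complex V 8 and 1 of 15, in complex I 18 and 5 of 32, and in complex III 4 and 2 of 9. Complex II, which has no mitochondrially encoded subunit, had 3 of 4 called lower, with a median of -0.86; SDHC, one of its membrane anchors, was 2.38-fold lower in OE33 (edgeR adjusted p = 0.000463). The assembly and translation factors had 16 of 30 called lower and 7 higher.

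With siPPARG in OE33, 49 of the 67 nuclear subunits kept were lower than in the control and 18 higher, where 51.3% and 48.7% of all kept genes were. The counting interval lay below 1 for 20 (25.8% of kept genes) and above 1 for 4 (24.8%), and the median log2 difference was -0.051. Examples are SDHA at 0.806 times the control (interval 0.771 to 0.843), a complex II gene outside those 67, CYC1, the cytochrome c1 gene of complex III, at 0.835 (interval 0.791 to 0.880), NDUFS7 of complex I at 0.862 and ATP5PB of complex V at 0.873. In Eso26, 63 of the 67 were higher and 4 lower, where 48.6% and 51.4% of all kept genes were, with a median of 0.13. The interval lay above 1 for 42 (23.6% of kept genes) and below 1 for 2 (29.6%), and SDHA stood at 1.15, CYC1 at 1.15, NDUFS7 at 1.37 and ATP5PB at 1.06. UQCR10 of complex III stood at 1.27 in Eso26 and 0.976 in OE33, COX5B of complex IV at 1.22 and 0.969, ATP5F1D of complex V at 1.28 and 0.945 and NDUFA2 of complex I at 1.30 and 1.04; for these 4 the OE33 interval included 1. In complex IV, 0 of 11 nuclear subunits had an OE33 interval below 1. None of the 67 was past 1.5-fold in either line. Of all kept genes in Eso26, 1.25% were higher and 1.15% lower past that fold. For OE33, 3.26% of kept genes were higher and 251 of 10527 lower. Among assembly factors, ATPAF2 stood at 1.62 in Eso26 (interval 1.25 to 2.12) and 1.07 in OE33, and NDUFAF4 at 0.779 and 0.952.

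Among 9304 nuclear genes at 5 CPM or more in all 4 libraries, the 5 whose log2 levels, centred over the 4 libraries, lay nearest to the summed members were TRAF5, SYT7, THNSL1, BAMBI and FUT2. Their Euclidean distances over the 4 libraries were 0.070, 0.13, 0.15, 0.17 and 0.17 log2 units. TRAF5, an adaptor of TNF receptor signalling, had 1471 and 1242 counts in Eso26 control and siPPARG and 187 and 254 in OE33. None of the 5 encodes a respiratory chain subunit, and few genes do. Among the 11382 genes tested in the 4-library fit, 67 were listed nuclear subunits of complexes I, III, IV and V.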

How the data were processed

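The authors deposited 1 table of unnormalised counts for each line, with genes in rows. The submitters' processing notes name STAR, Trim Galore, Picard, MACS2, Bowtie and the build hg19 without roles. The sources used here do not give the counter, its strand setting, its handling of multi-mapping reads or the mitochondrial reference, and all of these bear on genes with nuclear copies. The fold enrichment (a ratio) in the authors' deposited peak lists was not used; only the peaks' chromosomes were counted. Each table has 37533 rows, and 40 repeats of an identifier were summed with their partner. The expression columns were mapped to samples by title, and 0 columns belonged to other samples.

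Shares of all counts carry exact (Clopper-Pearson) 95% binomial intervals, and ratios of 2 libraries exact conditional binomial ones. Line ratios used shares of all counts; siPPARG ratios used TMM factors within the line (edgeR 4.0.16, R 4.3.3). Log2 differences over all genes used a prior count of 2 and a filter of 5 CPM in at least 1 of the libraries compared. The 4-library fit used edgeR's quasi-likelihood test with line and treatment, with DESeq2 1.42.0 and limma 3.58.1 as alternatives. On simulated counts with a common dispersion of 0.01, the share recovered was 99% at 2-fold and 99% at 4-fold for the line term (10917 genes tested). For the treatment term it was 98% and 97% (10908 genes tested). The simulated treatment effect was equal in both lines, and those counts held no line difference. Real genes vary more, and PPARG was not called by the treatment term in the real data. The simulated shares therefore do not give the recovery to expect in the real data.

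The members and lists were chosen with earlier results of these data known. Named genes were the members, the other mitochondrial rows, the 5 nuclear copies with the most counts, PPARG, the 3 members of each list with the largest difference in either line plus POLRMT, TFAM and LRPPRC, and the 5 nearest genes; of the lists, those not needed for a group's description were left out. Of 205 listed symbols, 21 were matched through RefSeq synonyms (GRCh38.p14). Genome order is RefSeq's. No coordinates or gene lengths were used. Ratios between genes within a library, and parts of the members' sum, are therefore of counts not corrected for length. The histone genes and MALAT1 were looked at after seeing the data.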

Additional observations from a re-analysis of the deposited data

Results flagged for a closer look

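The siPPARG difference ran in opposite directions in the 2 lines for the summed members and for 4 complex I members. Their counting intervals lay on opposite sides of 1 under TMM scaling. Outside the members the same held for MT-ATP8 (0.788 in Eso26 and 1.27 in OE33), MT-ND4L (0.813 and 1.35), MT-RNR1 (0.905 and 1.38) and MT-RNR2 (0.906 and 1.26). The share of all genes with such opposite intervals was not counted. The difference between the lines was not tested, since each line has 1 library per condition. The OE33 ratio over the Eso26 ratio was 1.29 for the sum, 1.61 for MT-ND1, 1.32 for MT-ND4, 1.56 for MT-ND5 and 1.76 for MT-ND6. A higher ratio in OE33 was not confined to complex I. With TMM scaling, MT-CO1 stood at 1.43 in OE33 and 0.995 in Eso26, and MT-CO2 at 1.33 and 1.004. The summed complex IV members stood at 1.33 and 1.01, while MT-CO3 went the other way, at 1.03 and 1.08. As plain shares of all counts the Eso26 sum was 0.998 (interval 0.994 to 1.002), so the opposite direction of the sum does not hold there, while the Eso26 ratios were 0.970 for MT-ND1, 0.967 for MT-ND4, 0.898 for MT-ND5 and 0.916 for MT-ND6.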

How the results depend on the processing

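The labels give no replicate numbers, so no fit with a replicate block was made. The 4-library fit holds line as a term and estimates 1 siPPARG effect common to both lines, not an effect for each line. The summed members' ratio of OE33 to Eso26 control, 0.175, was 0.179 with TMM over the 4 libraries, 0.178 with DESeq2 size factors, 0.171 over counts outside the mitochondrial rows, 0.190 over all MT- rows and 0.178 without MT-CO1. In Eso26 the siPPARG ratio of 0.968 was 0.998 without a scaling factor and 0.998 over non-mitochondrial counts, 0.951 over all MT- rows and 0.960 without MT-CO1; both unscaled settings gave 5 members higher (2 with TMM), with intervals above 1 for 4 and 3 (1 with TMM). In OE33 the ratio of 1.25 was 1.20 without MT-CO1, and all 10 members stayed at or above 1 under each scaling, MT-ND2 at 1.00002 as a plain share. All 10 members were called between the lines by every tool and filter run, and so were a large part of all genes. Of 11382 genes tested, DESeq2 called 7571 and limma-voom 8277, and edgeR without a filter called 10135 of 20401. For treatment DESeq2 called 13 genes and edgeR without a filter 64, none a member. Counts of all genes past 2-fold depended on the filter: with none, 3740 were higher and 3664 lower between the controls (2328 and 1902 at 5 CPM), 547 and 584 in OE33 (110 and 44) and 713 and 334 in Eso26 (6 and 15). Counting error is widest for MT-ND6; the spread between cultures is unknown.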

Other observations

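The 22 mitochondrial transfer RNA rows summed to 291 and 203 counts in Eso26 control and siPPARG and to 13 and 43 in OE33. In OE33 that is 3.09 times the control (interval 1.63 to 6.27), on few counts. MT-TT led in every library, with 62, 47, 3 and 18 counts.

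Of 407 nuclear copies of mitochondrial genes, 42 had a count above 0 and MTATP6P1 held 81.2% of their 9268 counts. MTCO1P12 had 324 and 251 counts in Eso26 control and siPPARG and 28 and 57 in OE33, and MTND2P28 had 255 and 186 against 28 and 31. MTND1P23 had 115 and 97 counts in Eso26 and 1 in each OE33 library, or 0.233% and 0.227% of the MT-ND1 counts in Eso26 against 0.0286% (interval 0.00072 to 0.160) and 0.0177% (interval 0.00045 to 0.0987) in OE33. MTCO2P12 had 59 and 60 counts in Eso26 and 4 in each OE33 library. The PPARG peak lists, 7010 peaks in Eso26 and 9652 in OE33, held 0 peaks on the mitochondrial chromosome; the sources used here do not say whether reads from it were kept.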
